A study of Mus musculus with 6 samples.

Results

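The genes described here are 50 genes of mitosis and the spindle, a list of mitotic kinases, A- and B-type cyclins, kinetochore, spindle, condensin and cytokinesis genes that was compiled from their known functions and matched to the deposited table by gene symbol. All 50 had a row among the 14868 genes of the table. All 50 also passed the filter on low values (mean no lower than 10), the lowest single value being 512 normalized reads, for Pttg1 in WT replicate 1. The study compared naïve CD4+ T cells, the helper lineage prior to any meeting with antigen, taken from wild-type (WT) or Ikzf4-/- mice, both on the C57BL/6J strain background. Ikzf4 encodes Eos, a zinc finger transcription factor of the Ikaros family. Cells of both genotypes were stimulated through plate-bound antibodies to CD3 (5 µg/mL) and CD28 (2 µg/mL) for 72 h. The medium of both contained 10 ng/mL interleukin-4 and 10 µg/mL of an antibody to interferon gamma, a combination that drives differentiation to T helper 2 (Th2) cells. Each genotype had 3 libraries of total RNA. The age and sex of the mice, the construction of the Ikzf4 allele and whether the 3 libraries came from separate animals are not given in the sources used here. The p-values and intervals below therefore rest on the spread between these libraries, which may be technical.

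Naïve T cells are quiescent, and stimulation through the T cell receptor and CD28 sends them through repeated rapid divisions, so that mitotic transcripts are abundant in such cultures. Entry into mitosis is driven by the kinase CDK1 bound to cyclin A or B and switched on by CDC25 phosphatases. Aurora and Polo kinases, motor proteins and kinetochores then build the spindle, the checkpoint proteins hold anaphase until every chromosome is attached, and the anaphase-promoting complex ends mitosis by destroying the cyclins and securin. Transcription of these genes peaks in the G2 and M phases of the cell cycle. It is held down in resting cells by the DREAM complex and driven in dividing cells by B-MYB and FOXM1, all of which reach promoters through the MuvB core and the CHR element (cell cycle genes homology region), while NF-Y binds neighbouring CCAAT boxes.

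The promoters of the list are shown first because these elements are what many of its genes share beyond the functions by which they were listed. RefSeq promoter windows on GRCm38.p6, each from 250 bases before to 50 bases after a start site, were matched for 41 of the 50 genes (44 windows). The letters searched on both strands were TTTGAA and TTCGAA for CHR, CCAAT for the CCAAT box, and TTTGGCGC and TTTCCCGC for E2F. None of these strings contains another. A CHR string was present for 31 of the 41 genes (75.6%), against 21.7% of all 27025 genes with a window. A CCAAT string was present for 29 (70.7%), against 41.1% of all genes, and 27 genes (65.9%) had both in the same window, against 8.61%. An E2F string was present for only 2 of the 41 genes (4.88%), against 1.80% of all genes. In a list of 49 DNA replication and S-phase genes, of which 39 had windows, E2F strings were found for 13 genes (33.3%), CHR strings for 9 (23.1%) and CCAAT strings for 22 (56.4%). Both CHR and CCAAT were found for 12.8% of these. In a list of 19 DREAM, MuvB, RB and E2F regulators, 15 had windows. Of these, CHR was found for 40%, CCAAT for 53.3%, both for 33.3% and E2F for 26.7%. In a list of 92 further mitosis genes, of which 78 had windows, CHR was found for 53.8%, CCAAT for 60.3% and both for 33.3%. Counted by window, CHR was found in 77.3% of the windows of the mitosis list and in 19.2% of all windows. These are counts of letters, not of bound sites, and differences in base composition between promoters were not taken into account. The 46 CHR matches in the mitosis windows had a median distance of -10 bases from the start site, and the 69 CCAAT matches lay further upstream, at a median of -74 bases. Bub3, Ect2 and Prc1 had 2 windows each, and a string lying in both was counted in each, so there are fewer distinct sites than matches.

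**Figure D1:**
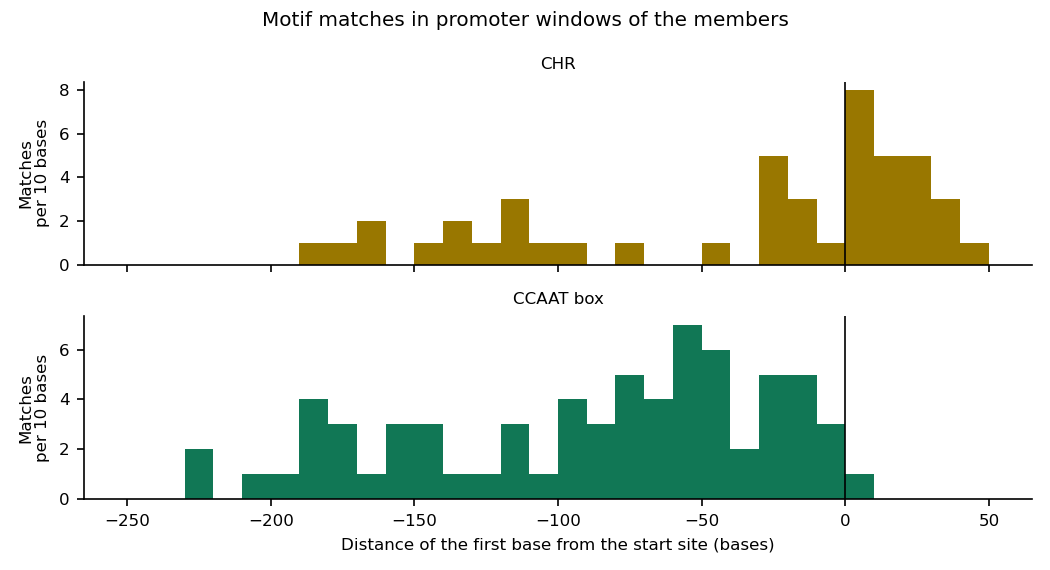
Matches of CHR (upper panel) and CCAAT (lower panel) strings in the 44 promoter windows of the mitosis and spindle genes, counted per 10 bases (y axis) by distance of the first base from the start site in bases (x axis). CHR matches were densest around the start site, with a median at -10 bases, and CCAAT matches had their median at -74 bases. Bub3, Ect2 and Prc1 had 2 windows each, and a string lying in both was counted in each.

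The 150 bases before the start site are printed for 6 genes, 5′ to 3′ on the strand of the gene, with CHR and CCAAT strings of either strand in capitals. Cdc25b is shown because it was the only gene of the list that differed between genotypes after adjustment. Ube2c is shown as a gene with a smaller difference, and Cdc20, Ccnb2, Top2a and Mki67 as well-known mitotic genes that did not pass the test.
Cdc25b, chr2:131186798-131186947, plus strand: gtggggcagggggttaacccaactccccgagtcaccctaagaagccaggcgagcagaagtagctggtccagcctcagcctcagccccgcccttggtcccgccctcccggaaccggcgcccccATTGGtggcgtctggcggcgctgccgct
Ube2c, chr2:164769779-164769928, plus strand: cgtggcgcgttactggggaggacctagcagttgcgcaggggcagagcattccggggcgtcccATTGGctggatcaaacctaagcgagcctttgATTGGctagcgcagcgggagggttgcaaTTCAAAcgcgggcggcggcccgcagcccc
Cdc20, chr4:118437344-118437493, minus strand: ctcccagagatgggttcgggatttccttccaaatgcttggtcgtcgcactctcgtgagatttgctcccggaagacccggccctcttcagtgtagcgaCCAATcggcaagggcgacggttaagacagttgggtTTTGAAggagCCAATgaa
Ccnb2, chr9:70421555-70421704, minus strand: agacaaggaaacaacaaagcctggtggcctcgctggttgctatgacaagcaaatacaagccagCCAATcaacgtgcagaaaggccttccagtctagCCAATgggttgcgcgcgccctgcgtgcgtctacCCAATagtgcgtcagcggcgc
Top2a, chr11:99024190-99024339, minus strand: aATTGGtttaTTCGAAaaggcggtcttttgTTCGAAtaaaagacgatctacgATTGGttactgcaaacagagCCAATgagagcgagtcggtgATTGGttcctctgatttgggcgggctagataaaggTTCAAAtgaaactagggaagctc
Mki67, chr7:135716380-135716529, minus strand: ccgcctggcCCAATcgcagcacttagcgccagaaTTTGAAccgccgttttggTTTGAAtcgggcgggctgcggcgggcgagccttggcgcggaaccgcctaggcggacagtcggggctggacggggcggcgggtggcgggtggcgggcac
In Cdc25b the CCAAT string reads ATTGG on the printed strand and begins at position -28, and a CHR string begins at position 8 after the start site, outside the printed stretch. In Cdc20 a CHR string at position -18 is flanked by CCAAT strings at -53 and -8. Ccnb2 has 3 CCAAT strings in the printed stretch, at -87, -54 and -21, and CHR strings outside it, at positions -167 and 5. Top2a has 4 CHR and 6 CCAAT strings in its whole window. The windows of Mybl2, Birc5, Ncaph, Pttg1, Mad2l1, Melk, Nuf2 and Nusap1 held neither string.

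The values analysed are normalized read counts, and the whole-number steps of the deposited values implied 34701390 to 40604346 reads per library, less certainly in Ikzf4-/- replicates 1 and 3, whose steps were close to 1. Ikzf4, the targeted gene, was at 756, 499.6 and 483 normalized reads across the WT libraries and at 25.2, 10.5 and 38.2 across the Ikzf4-/- ones (log2 ratio -4.64 with SE 0.37, limma adjusted p = 0.000389), so each library matched its label. On the first principal component over all genes tested (40.2% of the variance), WT replicate 1 lay at -41.3, apart from the other WT libraries at -12.5 and -5.26. The 8 T cell markers summed to between 103180 and 107353 normalized reads across the WT libraries and between 107804 and 111118 across the Ikzf4-/- ones. Markers of other cell types were low: 2 of 5 B cell markers had rows, with sums of 51.1 to 83.6 in WT and 58.6 to 90.4 in Ikzf4-/- libraries, and the 2 CD8 T cell markers summed to 236 to 423 and 232 to 374. For natural killer cells 1 of 3 markers had a row (17.0 to 38.6 and 12.1 to 36.2) and for erythroid cells 1 of 4 (2.13 to 18.4 and 7.03 to 12.6). The other markers of these types, and the 5 myeloid markers, were not analysed here. The 5 Th2 markers Gata3, Il4, Il13, Il5 and Il4ra summed to between 23373 and 32857 across the WT libraries and between 16315 and 19482 across the Ikzf4-/- ones. Whether this difference has a part in any result below was not tested.

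The comparison of genotypes asks whether the mitotic programme of these cells differs when Eos is missing. Of the 50 mitosis and spindle genes, 1 passed the test, Cdc25b, which was lower in Ikzf4-/- cells. That is 2% of the list, against 1.77% of all 14864 genes tested (limma-trend, Benjamini-Hochberg adjusted p under 0.05), and the list is therefore near the background. Of the 7805 genes tested with a mean no lower than that of the lowest member, 2.34% were called. Toward lower values the background was 1.20% and toward higher values 0.572%. At an adjusted p under 0.1 the list still held 1 call, against 5.07% of all genes. In the authors' deposited table Cdc25b was likewise the only call of the list, against 6.34% of all genes with an adjusted p there (3.89% lower). The median log2 fold change over the 50 genes was 0.00012, with 25 genes below 0 and 25 above, and the median over all genes tested was 0.0048. That even split depended on the scaling, the correction and the libraries used. With equal library totals 17 genes were below 0, where the median of all genes tested was 0.032. There were 18 with quantile scaling and 24 with upper quartile scaling, and 29 once trends in GC content and transcript length were removed. Without WT replicate 3 there were 30, and without WT replicate 1 there were 21. Before adjustment, 4 genes of the list (8%) had a p under 0.05, against 18.1% of all genes tested and 21.7% of those 7805 genes. The 4 were Cdc25b, Aurkb, Mybl2 and Ube2c, each with a negative fold change. For 9 genes (18%) every library of a genotype lay above every library of the other, 5 lower and 4 higher, against 23.1% of all genes tested (12.2% lower and 11.0% higher). Among the 7805 genes the share was 26.7%. In bulk RNA such as this, fewer cells in mitosis and less of a transcript per mitotic cell cannot be told apart.

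With the deposited scaling, the intervals set narrow limits on a difference between these libraries. The 95% interval of the fold change lay within 1.25-fold in either direction for 49 of the 50 genes, all but Cdc25b. It lay within 1.5-fold for all 50. The bound of 1.25 was chosen after the values were seen, and Cdc25c lay only just inside it, with an upper limit of 1.249-fold. The count was not made under other scalings. The interval lay within 1.25-fold for 46.8% of all genes tested, and for 82.0% of the 7805 genes tested with a mean at least as high as that of the lowest member. The 49 genes that were not called had log2 fold changes from -0.17 for Aurkb to 0.15 for Cdc25c. The median of the absolute log2 fold change was 0.041 for the list, 0.071 for the 7805 genes of at least that level and 0.11 for all genes tested. An adjusted p above the threshold does not show that values were equal. The intervals state how large a difference remains possible for each gene taken singly, at the deposited scaling. They rest on the spread between these libraries.

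**Figure D2:**
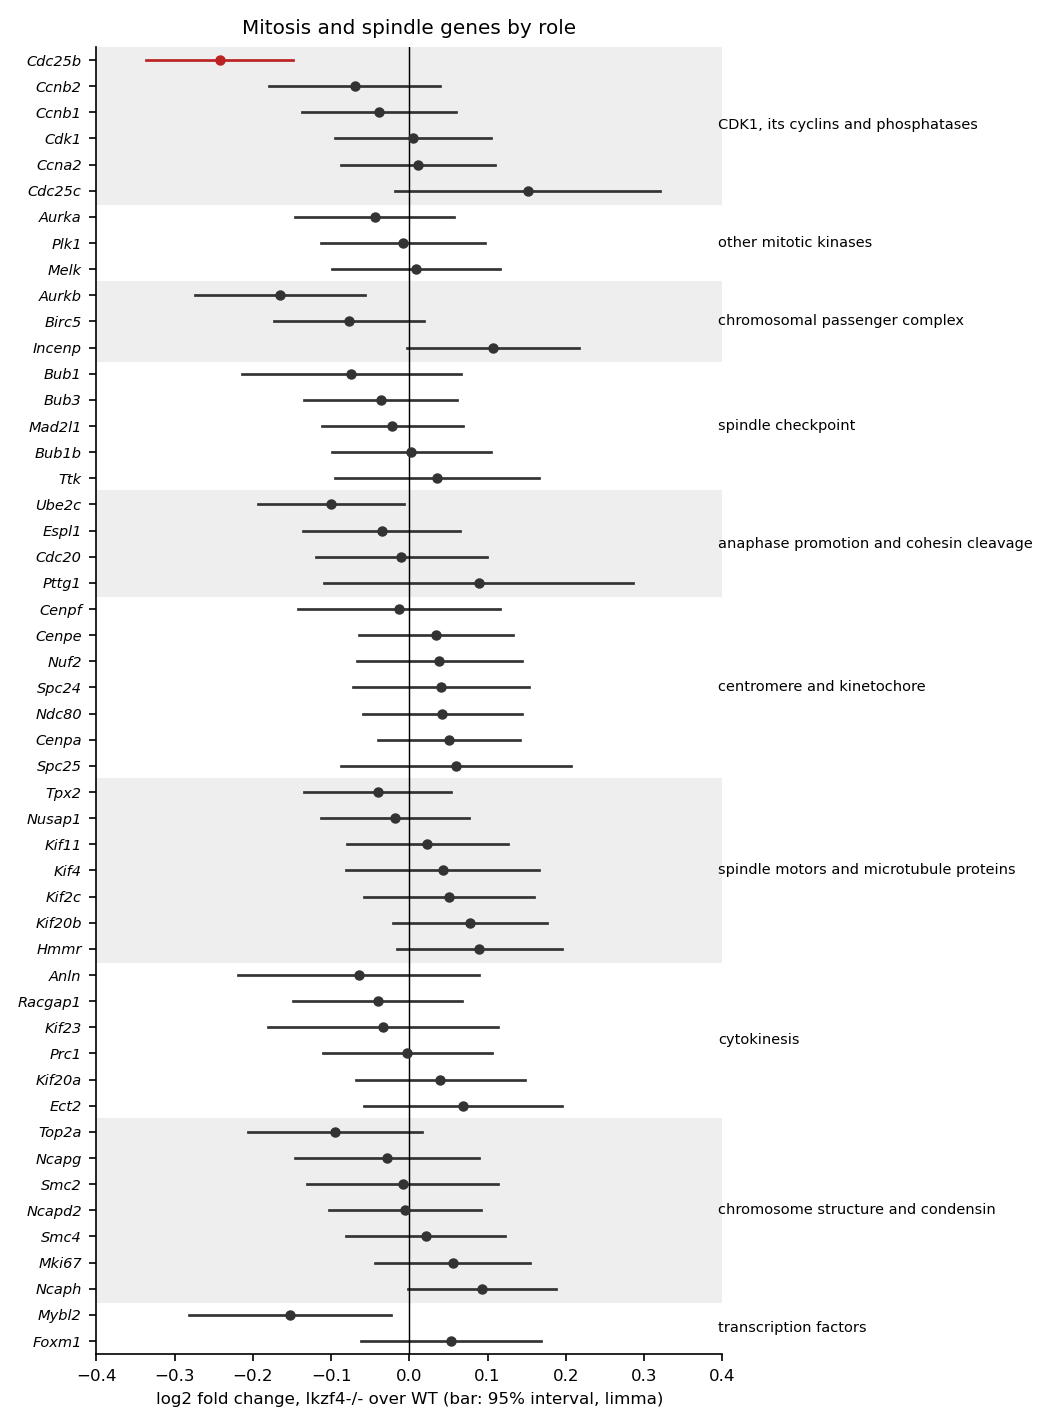
Log2 fold change of Ikzf4-/- over WT (x axis) for each of the 50 genes, grouped by role (y axis), with points for the limma estimate and bars for its 95% interval; 0 is marked by a vertical line. Cdc25b, in red, at -0.24 was the only gene called, and the other points lay between -0.17 and 0.15.

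Among the genes that switch on CDK1, Cdc25b stood out. Its product is a phosphatase that removes inhibitory phosphates from cyclin-dependent kinases at the entry into mitosis. Cdc25b (ENSMUSG00000027330, chromosome 2, 131186949 to 131198497 on the plus strand of GRCm38) was at 6538, 6310 and 6328 normalized reads across the WT libraries and at 5444, 5325 and 5438 across the Ikzf4-/- ones. The genotypes did not overlap, and the libraries of each lay close together. The mean fell from 6392 ± 127 to 5402 ± 67.4 (SD, n = 3 each), a log2 fold change of -0.24 (SE 0.042, 95% interval -0.34 to -0.15, limma adjusted p = 0.0258). Cdc25b thus fell by 15.5%, a small difference that exceeded the spread between replicates. When 1 library was left out, the call was kept without WT replicate 1 (limma adjusted p = 0.0311) or 3 (0.0259). It was lost without WT replicate 2 (limma adjusted p = 0.0615) and without Ikzf4-/- replicate 1 (0.0713), 2 (0.0853) or 3 (0.0942). In these fits calls over the whole table also fell, from 263 to 75, 48, 111 and 20 in the same order. Each such fit has fewer libraries, and why the call was lost was not tested. The log2 fold change of Cdc25b stayed between -0.25 and -0.23 in all of them. The call was also lost once the dependence on GC content and transcript length was taken out of every library (-0.19, limma adjusted p = 0.0574). For Cdc25b the authors' deposited table gives a log2 fold change of -0.24, adjusted p 0.000438.

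Cdc25c, the gene of another phosphatase with the same substrate, was at 764, 876 and 794 normalized reads across the WT libraries and at 929, 914 and 858 across the Ikzf4-/- ones. WT replicate 2 lay above the lowest Ikzf4-/- library, so the groups overlapped. Its log2 fold change was 0.15, the highest of the list (95% interval -0.018 to 0.32, limma adjusted p = 0.331). Cdc25a, a further gene of the family that was outside the list, was at -0.065 on the same scale (limma adjusted p = 0.531). The kinase and its cyclins showed no difference beyond the spread between libraries. Cdk1 was at 5709, 5900 and 6052 across the WT libraries and at 5854, 6069 and 5792 across the Ikzf4-/- ones (log2 fold change 0.0045, 95% interval -0.095 to 0.10). Ccnb1, the gene of cyclin B1, was at 9661, 10148 and 9716 against 9831, 9696 and 9215, with a log2 fold change of -0.039. Ccna2, the gene of cyclin A2, which acts from S phase onward, was at 10422, 10109 and 9999 against 10689, 10139 and 9941 (0.011). Values of the genotypes overlapped for these 3 genes and for Ccnb2 (-0.070).

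The other mitotic kinases gave flat values. Plk1, the Polo kinase that acts from mitotic entry to cytokinesis, was at 7817, 8561 and 8356 normalized reads across the WT libraries and 8244, 8330 and 8009 across the Ikzf4-/- ones, with a log2 fold change of -0.0080. Aurka, the kinase of the spindle poles, was at 4947, 4977 and 5018 against 4701, 4750 and 5047 (-0.044), and the highest of its 6 values was that of Ikzf4-/- replicate 3. Melk had a log2 fold change of 0.0085. No gene of this group was called.

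In the chromosomal passenger complex, which corrects faulty attachments of chromosomes to the spindle and later directs cytokinesis, the members differed in sign. Aurkb, its kinase, was at 7977, 7521 and 7282 normalized reads across the WT libraries and at 6513, 6960 and 6832 across the Ikzf4-/- ones. The lowest WT value lay above the highest Ikzf4-/- value, and the log2 fold change was -0.17 (SE 0.049, 95% interval -0.27 to -0.056), but the limma adjusted p was 0.114. Birc5, the gene of survivin, which holds the complex at centromeres, had means of 5367 ± 98.8 and 5090 ± 100.4 (SD, n = 3 each) without overlap (log2 difference of -0.076, limma adjusted p = 0.389). Incenp, the scaffold of the complex, was at 11380, 11619 and 11242 against 12916, 12489 and 11510. Its log2 fold change was 0.11 (limma adjusted p = 0.289), and Ikzf4-/- replicate 3 lay within the WT range. None of the 3 was called.

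**Figure D3:**
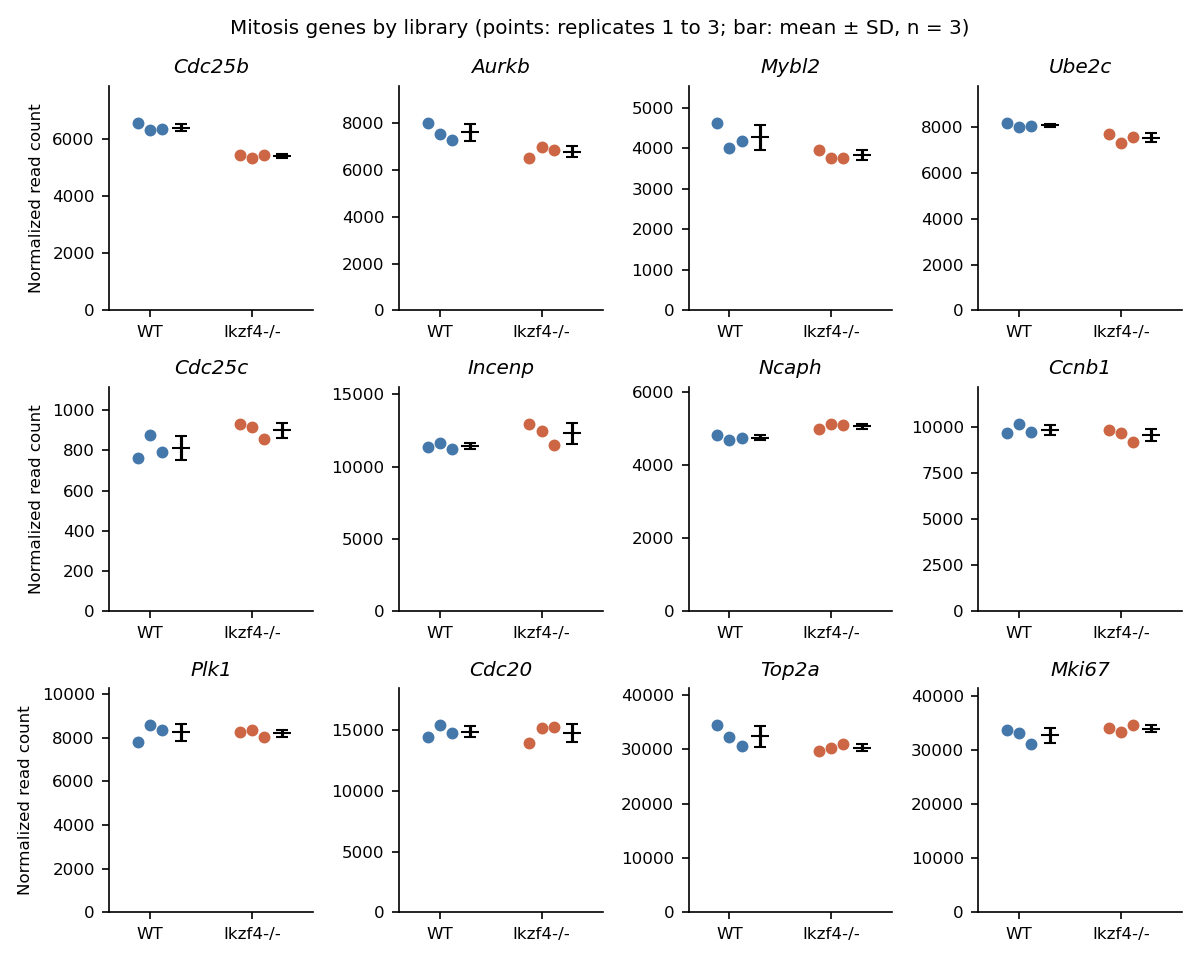
Normalized read count (y axes, each from 0) of 12 mitosis and spindle genes in the 3 WT libraries (blue) and the 3 Ikzf4-/- libraries (orange), with points for replicates 1 to 3 from left to right and bars for mean ± SD (n = 3). Cdc25b, Aurkb, Mybl2 and Ube2c were lower in each Ikzf4-/- library than in each WT library, Ncaph was higher in each, and the other 7 genes overlapped. The 12 were picked to include the 4 genes with an unadjusted limma p under 0.05, so they do not stand for the list. Values did not overlap for 18% of the list and for 23.1% of all genes tested.

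The spindle checkpoint delays anaphase while any kinetochore is unattached. Bub1b, which encodes the checkpoint protein BUBR1, was at 8867, 9028 and 8534 normalized reads across the WT libraries and 8550, 8739 and 9193 across the Ikzf4-/- ones (log2 fold change 0.0027). Bub3, its partner, was at 9389, 9282 and 9387 against 9049, 9534 and 8783 (-0.037). Bub1, a checkpoint kinase, was among the 3 members with the widest spread within genotypes: its WT values of 3594, 3632 and 3636 lay close together, and Ikzf4-/- replicate 1 at 3105 lay below the others at 3684 and 3555 (log2 fold change -0.074). Mad2l1, the gene of the inhibitor MAD2 (-0.022), and Ttk, that of the kinase MPS1 (0.035), completed the group, in which no gene was called and no gene was without overlap.

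Of the 4 genes that govern anaphase, Ube2c was the single gene without overlap between genotypes. Its product is the ubiquitin-conjugating enzyme of the anaphase-promoting complex. Ube2c was at 8165, 8027 and 8058 normalized reads across the WT libraries and at 7719, 7329 and 7581 across the Ikzf4-/- ones, without overlap, with a log2 fold change of -0.10 (95% interval -0.19 to -0.0073, limma adjusted p = 0.241). With trends in GC content and transcript length removed it was -0.048 (limma adjusted p = 0.597). Cdc20, the activator of the same complex, was at 14491, 15416 and 14805 against 13926, 15204 and 15292 (-0.010), a mixed order in which Ikzf4-/- replicate 1 was lowest. Pttg1, the gene of securin, the inhibitor of separase, was at 512, 597 and 593 against 590, 584 and 632 (0.089, limma adjusted p = 0.659), where WT replicate 1 was the lowest library. Espl1, the gene of separase, had a log2 fold change of -0.035.

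Of the centromere and kinetochore genes 0 of 7 were called, and 0 had an unadjusted p under 0.05. Their log2 fold changes were above 0 for 6 of 7, with a median of 0.041, but for 4 of 7 under the correction for GC content and length, with a median of 0.0084, and for 7 of 7 with quantile scaling or equal library totals. Cenpa, the gene of the histone H3 variant that marks centromeres, was at 8276, 8199 and 8158 normalized reads across the WT libraries and 8653, 8585 and 8280 across the Ikzf4-/- ones. These did not overlap, although Ikzf4-/- replicate 3 lay only just above WT replicate 1 (log2 fold change 0.051, limma adjusted p = 0.567). Cenpe, a kinetochore motor, was at 5724, 5898 and 5509 against 5810, 5809 and 5915 (0.034). The 4 genes of the NDC80 complex, which binds microtubule ends, had similar values: Ndc80 0.042, Nuf2 0.038, Spc24 0.041 and Spc25 0.059. Cenpf was at -0.013.

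Spindle motors and microtubule proteins had a median log2 fold change of 0.043 over 7 genes, none of which was called; without WT replicate 3 the median was -0.0078. Kif11, the motor that pushes spindle poles apart, was at 11056, 11141 and 10404 normalized reads across the WT libraries and 10607, 11168 and 11353 across the Ikzf4-/- ones (0.023). Tpx2, which activates Aurora A on the spindle, was at 9596, 9543 and 9090 against 9022, 9240 and 9179 (-0.040). Hmmr, which encodes a spindle-associated protein, was higher in each Ikzf4-/- library (means 4017 ± 159 and 4272 ± 63.2, SD, n = 3 each), at an estimated log2 difference of 0.090 (limma adjusted p = 0.355). Kif20b likewise had no overlap (3971 ± 74.0 and 4190 ± 77.2, SD, n = 3 each; 0.078, limma adjusted p = 0.396). Kif2c, which depolymerizes microtubules, had a log2 fold change of 0.050, the chromokinesin gene Kif4 of 0.043 and Nusap1 of -0.018, each with overlapping values.

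No cytokinesis gene was called or without overlap. Racgap1, a component of centralspindlin, was at 8186, 8167 and 7616 normalized reads across the WT libraries and 7990, 7901 and 7413 across the Ikzf4-/- ones (log2 fold change -0.041). Kif20a, a motor of the central spindle, was at 6657, 7160 and 6514 against 6973, 7128 and 6782 (0.040). Kif23, the motor subunit of centralspindlin, had the widest spread within genotypes of the 50 genes: WT replicate 1 at 4100 lay above WT replicates 2 and 3 at 3643 and 3383, and the Ikzf4-/- values of 3629, 3524 and 3687 all lay within that range (-0.033). Without WT replicate 1 its log2 fold change was 0.041. Ect2, an exchange factor that activates RhoA at the cell equator, was at 0.069, Anln at -0.065 and Prc1, which bundles midzone microtubules, at -0.0024.

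Genes of chromosome structure gave the highest read counts of the list and no call. Mki67, the gene of the proliferation marker Ki-67, which coats mitotic chromosomes, was at 33631, 33197 and 31139 normalized reads across the WT libraries and 33974, 33266 and 34519 across the Ikzf4-/- ones (log2 fold change 0.055, 95% interval -0.044 to 0.15). Top2a, the topoisomerase that untangles sister DNA, was at 34370, 32230 and 30498 against 29659, 30202 and 30939 (-0.095, limma adjusted p = 0.351), and WT replicate 3 lay within the Ikzf4-/- range. Ncaph, the kleisin subunit of condensin I, was at 4813, 4683 and 4732 against 4983, 5107 and 5082. All 3 Ikzf4-/- libraries were higher, with a log2 fold change of 0.093 (95% interval -0.0015 to 0.19, limma adjusted p = 0.285). The other condensin genes did not follow it: Smc2 was at -0.0086, Smc4 at 0.021, Ncapd2 at -0.0050 and Ncapg at -0.029, each with overlapping values.

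The list holds 2 transcription factor genes. Mybl2, which encodes B-MYB, was at 4618, 4007 and 4188 normalized reads across the WT libraries and 3972, 3767 and 3774 across the Ikzf4-/- ones. The groups did not overlap, by a margin of 4007 against 3972, and WT replicate 1 lay above the other WT libraries. Its log2 fold change was -0.15 (SE 0.058, 95% interval -0.28 to -0.023, limma adjusted p = 0.201), and it was not called. The difference was smaller without WT replicate 1 (-0.094) and with trends in GC content and transcript length removed (-0.066). Foxm1 was at 3770, 3998 and 3952 against 4053, 3860 and 4254, with overlapping values (log2 fold change 0.053, limma adjusted p = 0.644).

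Levels of different genes were compared per kilobase of the principal transcript in the GENCODE M21 annotation, since long transcripts collect more reads. On this scale, as a mean over the 6 libraries, Cdc20 was highest at 8285 normalized reads per kb, followed by Ube2c (8080), Top2a (5998), Cenpa (5702) and Birc5 (5522). Mki67, which had the most reads, ranked 15 with 3309. Ccnb1 was at 3902, Plk1 at 3738, Aurkb at 3682, Cdc25b at 1909 and Cdk1 at 1348. The lowest levels were those of Cdc25c (440), Cenpf (405) and Anln (291), Anln being the gene of anillin, a scaffold of the cleavage furrow. Which transcripts the cells used was not measured, so the order rests on the annotated length.

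**Figure D4:**
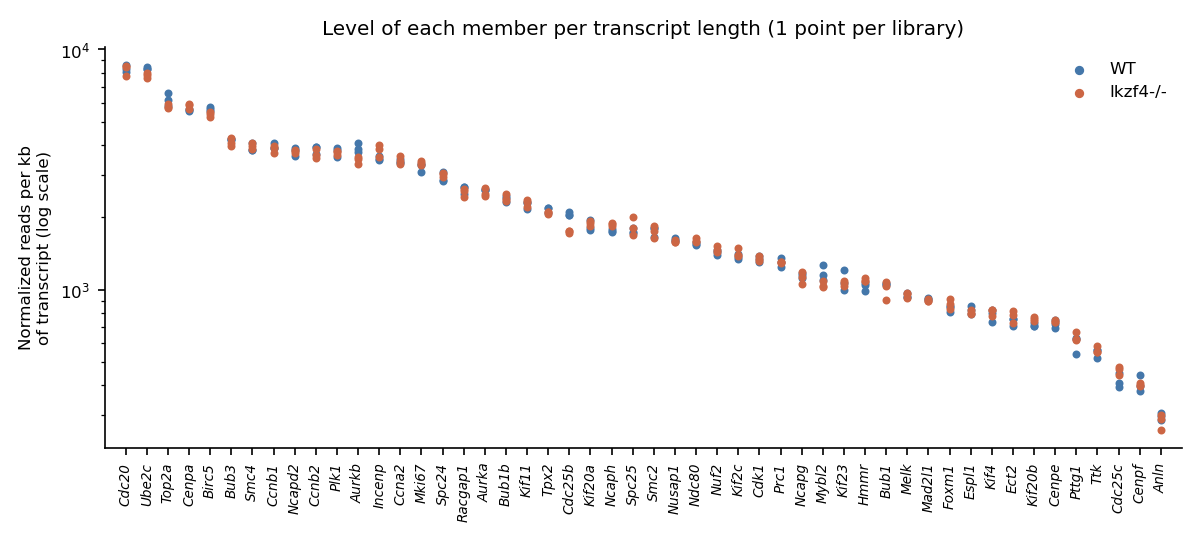
Level of each of the 50 genes in normalized reads per kilobase of principal transcript (y axis, log scale), with genes ordered by their mean (x axis) and 1 point for each WT library (blue) and each Ikzf4-/- library (orange). Cdc20 at 8285 was highest and Anln at 291 lowest on average, and the points of the 6 libraries lay close together for each gene.

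The list was also steady between libraries. Its 50 genes together took 0.964% to 1.01% of the normalized reads across the WT libraries (mean 0.987% ± 0.0211, SD, n = 3) and 0.992% to 1.00% across the Ikzf4-/- ones (mean 0.999% ± 0.00598, SD, n = 3). The SD of log2 values within genotypes had a median of 0.050 over the list, 0.072 over the 7805 genes of at least the level of the lowest member and 0.12 over all genes tested. The median deviation of the 50 genes from their own means over the 6 libraries was 0.015, 0.017 and -0.029 on the log2 scale for the WT libraries, by replicate, and -0.012, 0.0092 and -0.010 for the Ikzf4-/- ones. WT replicate 3 was the lowest library for 14 genes and the highest for 1. WT replicate 1, which stood apart on the first principal component, was the highest library for 15 genes and the lowest for 9. Among all 14864 genes tested, WT replicate 3 was the lowest library for 2193 and the highest for 1920. In the same count WT replicate 1 was the highest for 3805 and the lowest for 3514. Cdc25b was above its mean in all 3 WT libraries and below it in all 3 Ikzf4-/- libraries, by at least 0.10 in each.

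**Figure D5:**
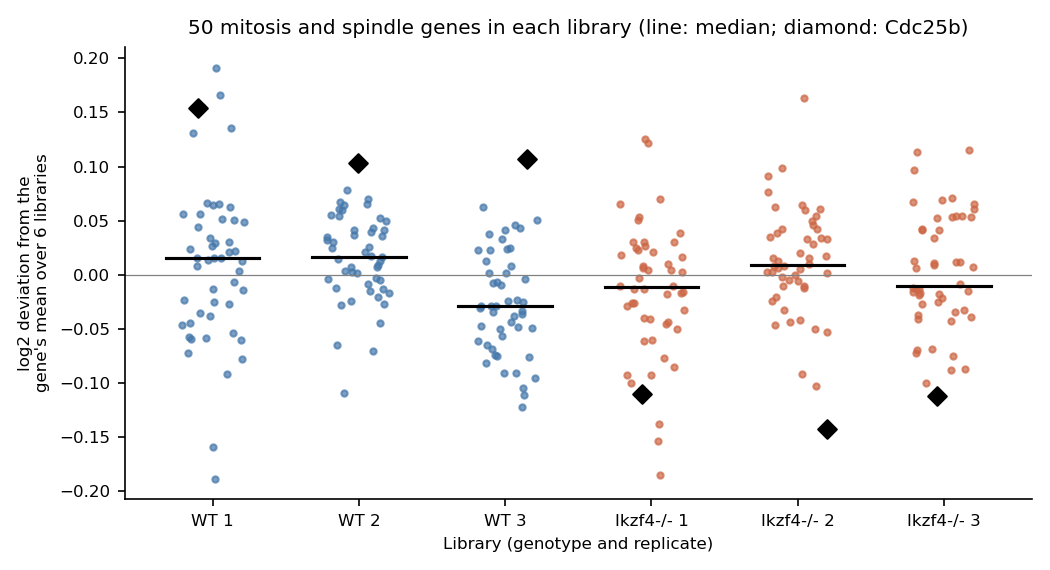
Deviation of each of the 50 genes from its own mean over the 6 libraries (y axis, log2 scale) in each library (x axis), with small points for genes, a line for the median of the 50 and a diamond for Cdc25b. The medians lay between -0.029 and 0.017 in all 6 libraries, whereas Cdc25b was above 0.10 in each WT library and below -0.10 in each Ikzf4-/- library.

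By position, 10 of the 50 genes lie on chromosome 2, and 3 of the 4 genes with an unadjusted p under 0.05 (Cdc25b, Mybl2 and Ube2c) are among these; this grouping was made after the values were seen. Mybl2 lies at 163054687 to 163084688 and Ube2c at 164769898 to 164778822, both on the plus strand of GRCm38, with Cdc25b nearer the start of the chromosome, at the position given above. The 10 genes on chromosome 2 had a median log2 fold change of -0.042 and the other 40 of 0.0096. Ncaph, also on chromosome 2, had a fold change above 0. Over all 1161 genes tested on chromosome 2 the median was -0.0022. An unadjusted p under 0.05 was found for 17.9% of them and for 18.1% of the genes tested elsewhere, and 24 (2.07%) were called, against 1.74% elsewhere.

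Further genes of the same pathway, from lists compiled by function, were counted beside the 50. The shares over all genes tested to read them against are 1.77% called and 18.1% with an unadjusted p under 0.05. For calls in the authors' deposited table the share is 6.34% of all genes with an adjusted p there. Of 92 further mitosis genes, 91 were tested and 1 (1.10%) was called, Anapc11, a catalytic subunit of the anaphase-promoting complex, which fell from 3740 ± 83.4 to 3200 ± 69.8 normalized reads (SD, n = 3 each; a log2 difference of -0.22, limma adjusted p = 0.0436). The median of the 91 was 0.021. At an unadjusted p under 0.05 there stood 16 of the 91 (17.6%). At the ends of their range, and not called by limma, were Fam83d (-0.27, limma adjusted p = 0.235), Gtse1 (0.24, 0.0621) and Cenpw (0.26, 0.0917). The authors' deposited table calls 4 of the 91: Anapc11, Gtse1 (adjusted p 0.0110), Cenpw (0.0354) and Anapc2 (0.0188), another subunit of the same complex, which limma did not call (-0.19, limma adjusted p = 0.0658). Of 19 genes of the DREAM, MuvB, RB and E2F regulators, 1 (5.26%) was called, E2f2, an activator of S-phase genes, and 5 (26.3%) had an unadjusted p under 0.05. E2f2 was at 4708, 4697 and 4740 across the WT libraries and 3904, 3829 and 4173 across the Ikzf4-/- ones, and fell by 15.9% (log2 fold change -0.25, limma adjusted p = 0.0343). Myb, a haematopoietic relative of Mybl2, was at -0.27 (limma adjusted p = 0.0889), E2f3 at 0.19 (0.172) and E2f7 at 0.15 (0.351). The authors' deposited table calls 2 of the 19, E2f2 and Myb (adjusted p 0.0457). Of 49 DNA replication and S-phase genes, 0 were called by limma; 6 (12.2%) had an unadjusted p under 0.05, and 0 were called in the authors' deposited table. Their median log2 fold change was -0.025, with Gmnn at -0.17 (limma adjusted p = 0.253), Pold1 at -0.17 (0.114), Pola1 at 0.10 (0.311) and Tyms at 0.16 (0.225).

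The calls of Anapc11 and E2f2 were not kept in every fit without 1 library or under every scaling. Calls over the whole table were 75 without WT replicate 2 and 523 without WT replicate 3. They were 48, 111 and 20 without Ikzf4-/- replicates 1, 2 and 3. Anapc11 was not called without WT replicate 2 (limma adjusted p = 0.114), WT replicate 3 (0.0563), or Ikzf4-/- replicate 1 (0.0941), 2 (0.146) or 3 (0.123). E2f2 was not called without WT replicate 2 (0.0856) or Ikzf4-/- replicate 1 (0.0967), 2 (0.123) or 3 (0.0765). Over the 6 fits without 1 library the log2 fold change stayed between -0.24 and -0.21 for Anapc11 and between -0.29 and -0.22 for E2f2. With equal library totals Anapc11 was at -0.20 (limma adjusted p = 0.0709) and E2f2 at -0.22 (0.0507). Under the correction for GC content and length Anapc11 was at -0.19 (0.0789), whereas E2f2 shrank to -0.16 (0.137). The authors' deposited table gives Anapc11 0.00582 and E2f2 0.00163 as adjusted p.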

How the data were processed

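Total RNA of 3 WT and 3 Ikzf4-/- Th2 cultures was sequenced. The submitters' processing notes name Trimmomatic 0.36, STAR 2.5.2b and DESeq2 and the build GRCm38; which program counted reads, and whether by strand, is not given in the sources used here. The sample columns of the deposited table are never-negative signal values, read here as read counts divided by a size factor per library (0.939 to 1.11), because 100% of the values were whole multiples of a step, within 0.05. In Ikzf4-/- replicates 1 and 3 the step (1.009 and 1.005) was too near 1 for this to establish recovered reads. The authors' log2 fold changes and p-values stand in the same deposited table.

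The test was limma 3.58.1 in R 4.3.3 (limma-trend, two-sided, 95% intervals) on log2(value + 1), with genotype as the only term, over the 14864 genes with a mean of at least 10. Calls had a Benjamini-Hochberg adjusted p under 0.05. Every fold change refers to log2(value + 1). A count model planned for whole reads was not used, since whole reads could not be recovered with certainty in every library. The procedure was tested on simulated data whose planted changes were larger than any in the list, so that test does not show how well smaller ones are detected. The members and lists were chosen with earlier results of these data known. Values in every library are given for members called or with an unadjusted p under 0.05, the 3 highest and lowest fold changes, the 3 widest spreads within genotypes and the 2 most abundant genes per role; other values named were chosen after they were seen.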

Additional observations from a re-analysis of the deposited data

How the results depend on the processing

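The number of genes called over the whole table was 263 and depended strongly on the fit. It was 482 with array weights, 165 with the trends in GC content and transcript length removed, 815 in the authors' deposited table, and between 20 (without Ikzf4-/- replicate 3) and 523 (without WT replicate 3) when 1 library was left out. It was 75 without WT replicate 2, 48 without Ikzf4-/- replicate 1 and 111 without Ikzf4-/- replicate 2. Same-numbered libraries were not paired by the labels, and their deviations correlated at 0.145, 0.0122 and 0.142; 4 of the 6 libraries correlated best with their own number. A replicate block gave 754 calls, and 592 when combined with the correction for GC content and length; both kept 1 call in the list. The count of mitosis and spindle genes called was 0 under the correction for GC content and length and 0 to 1 when a library was left out. Their median log2 fold change was 0.027 with equal library totals, where all genes shifted too, and -0.011 to 0.022 without 1 library.

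Signs changed for genes called under neither setting, and the cause was not tested. Cdc20 was at 0.014 with quantile scaling, 0.017 with equal totals, 0.034 under the correction for GC content and length, and 0.014 and 0.033 without WT replicate 2 and Ikzf4-/- replicate 1. Plk1 was at 0.014, 0.019 and 0.050 under the same 3 corrections, and at 0.020, 0.0022 and 0.0084 without WT replicate 2, WT replicate 3 and Ikzf4-/- replicate 3. Kif11, Ccna2 and Cenpe were at -0.0037, -0.018 and -0.0046 under the correction for GC content and length. Without WT replicate 3, Kif11 was at -0.0078, Ccna2 at -0.0018 and Bub1b at -0.020. Ccna2 was at -0.019 without Ikzf4-/- replicate 1 and Bub1b at -0.027 without Ikzf4-/- replicate 3 and -0.0089 with array weights. Kif23 was at 0.041 without WT replicate 1. The corrected values were the same with the block added. Over the fits without 1 library the opposite ends were -0.034 for Cdc20, 0.052 for Kif11, -0.046 for Plk1, -0.097 for Kif23 and 0.025 for Bub1b. Of 684 values of 38 named genes, 627 kept sign and side of the threshold, 26 changed sign, 20 lost a call and 11 gained it.

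The planned count models were not run, since whole reads could not be recovered with certainty in every library. With 3 libraries a genotype, the 95% interval of a gene of the list reached 0.11 to either side of its log2 fold change at the median.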
